A study of Mus musculus with 3 samples.

Results

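The histone cluster genes are the 49 genes on the array whose annotated name begins with Hist1h, Hist2h, Hist3h or Hist4h, measured by 55 probes out of 55681 probes for 34797 gene names. They comprise 6 H1, 14 H2a, 12 H2b, 8 H3 and 9 H4 genes, of which 36 lie on chromosome 13, 9 on chromosome 3, 3 on chromosome 11 and 1 on chromosome 6 in the mm9 annotation of the array. RNA came from 3 groups of male mouse ES cells of the EB5 line, each measured in triplicate on 3 arrays: *Nr0b1* KO/Y ES cells (*Dax1* KO/Y in the labels) several passages after the deletion, *Nr0b1* fl-/Y+Tx cells (*Dax1* flox/Y + Cre) 4 days after the start of 4-hydroxy tamoxifen (Tx), and, with *Nr0b1* intact, the floxed *Nr0b1* fl-/Y−Tx line (*Dax1* flox/Y). *Nr0b1*, also called *Dax1*, encodes an X-linked nuclear receptor without a DNA-binding domain. The cells of all 3 groups carry *MerCreMer*, the Cre recombinase that Tx switches on, and *Egfp*, both expressed constitutively from integrated vectors. The study cultured its ES cells with or without mouse embryonic fibroblast feeders, and the sources used here do not state which applied to these RNA samples, nor from how many clones they came.

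Each nucleosome holds H2A, H2B, H3 and H4, and the linker histone H1 binds the DNA between nucleosomes. Most cluster genes are replication-dependent: they are transcribed in S phase, have no introns, and their mRNAs end shortly after a conserved stem-loop without a poly(A) tail. *Slbp* protein binds this stem-loop, and cleavage behind it makes the mature end. Some cluster genes, among them *Hist1h1c*, *Hist1h2bc* and *Hist2h2be*, can also be read past the stem-loop to a downstream poly(A) signal, and such polyadenylated histone mRNAs are known from differentiating and non-dividing cells. The labelling kit used here starts from an oligo(dT) primer, which favours polyadenylated RNA. The place of a probe in the transcript therefore bears on what it can detect.

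By its position each probe was put into 1 of 2 sets, a division made after the values had been seen and used as a description only. The 38 body probes, for 35 genes, end at most 10 bases past a stem-loop or, without one, begin within a limit. The limit is 100 bases past the longest usual coding length of the class, counted from the start of the transcript. The coding region itself was not located, and the body set includes probes that begin 0 and 3 bases into the transcript. The 17 downstream probes, for 16 genes, reach more than 10 bases past the stem-loop or, without one, begin beyond that limit. All or part of the stem-loop was found in 8 probes. The following 30-base stretches of probes are shown because they place the probe against the mature end, and the capitals mark the stem-loop. The first is a body probe that ends 6 bases past it, and the other pair are downstream probes that run on for 38 and 48 bases.
Hist2h2bb: tacccaaaaGGCTCTTTTCAGAGCCacttt
Hist2h2aa1: aaaGGCTCTTTTCAGAGCCacccactgaat
Hist1h2ae: CTTTTCAGAGCCattcacttaattcagtaa

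Near-identical copies limit how far single genes can be told apart. A probe was counted as like another where at least 40 aligned bases were at least 90% identical. This held for 9 body probes, 6 of H2a and 3 of H4 (*Hist1h4d*, *Hist1h4j* and *Hist1h4k*), and for 0 downstream probes. The end of the H2a coding region is shown for 5 genes, 60 bases each, with capitals at bases that differ from the commonest base at that place over 7 such probes aligned without gaps.
Hist1h2af: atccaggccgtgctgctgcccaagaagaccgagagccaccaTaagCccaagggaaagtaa
Hist1h2ah: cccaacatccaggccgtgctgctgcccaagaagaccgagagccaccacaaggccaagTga
Hist1h2ak: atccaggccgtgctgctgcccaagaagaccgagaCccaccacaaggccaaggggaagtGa
Hist1h2an: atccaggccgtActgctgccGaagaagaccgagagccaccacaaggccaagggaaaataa
Hist2h2aa2: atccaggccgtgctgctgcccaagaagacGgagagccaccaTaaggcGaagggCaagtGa
These probes lie on chr13:23626113-23626172, chr13:22127035-22127094, chr13:21845304-21845363, chr13:21878695-21878754 and chr3:96049837-96049896 of mm9. RNA of one of these genes cannot be told apart from that of another by such probes. The longest run of bases shared with a probe of another member had a median of 13 over body probes and of 10 over downstream probes, with maxima of 42 and 22.

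*Nr0b1* had a log2 signal of -6.26 ± 0.094 relative to the array's 75th percentile in KO/Y ES cells, -2.55 ± 0.13 in +Tx ES cells and 4.10 ± 0.084 in −Tx ES cells (SD, n = 3 arrays each). It was 101-fold lower in +Tx than in −Tx ES cells (adjusted p = 5.34e-09 by limma), and in KO/Y ES cells, where 0 arrays measured it well above background, at least 322-fold lower (adjusted p = 1.26e-10). Between 51.7% and 58.4% of probes per array were well above background. One slide carried the 3 KO/Y arrays with 2 +Tx arrays, the other carried 1 +Tx array with the 3 −Tx arrays, so KO/Y and −Tx ES cells never shared a slide and are linked across slides only through the +Tx arrays. The summed linear signal of 10 ES cell markers, in units of the array's 75th percentile, was 564 to 684 in KO/Y, 673 to 722 in +Tx and 721 to 754 in −Tx ES cells. Single markers went both ways, with 2 higher and 4 lower in KO/Y than in −Tx ES cells (adjusted p under 0.05 by limma). Of all genes 20.6% were higher and 26.4% lower. All 12 primitive endoderm markers and all 12 fibroblast markers were higher in KO/Y than in −Tx ES cells (adjusted p under 0.05 by limma), against the same 20.6% of all genes. Their summed signals in the same unit were 40.7 to 61.3 in KO/Y, 12.7 to 15.2 in +Tx and 9.39 to 9.67 in −Tx ES cells for primitive endoderm, and 387 to 438, 325 to 348 and 265 to 281 for fibroblasts. In +Tx over −Tx, 4 primitive endoderm markers were higher and 2 lower, and 6 fibroblast markers were higher and 0 lower, by the same test. In that comparison 11.9% of all genes were higher and 14.7% lower. The sum of 10 markers of the 2-cell embryo was 182 to 209 in KO/Y, 115 to 130 in +Tx and 21.6 to 22.3 in −Tx ES cells. By Tcstv1 staining and a *Zscan4c* reporter, the study found more positive cells in KO/Y than in floxed ES cells. It also found Sox7, Sox17 and Gata4 in clusters of differentiated cells. The part of such cells in the histone results was not tested. In these bulk arrays a change in the number of cells of a type and a change in RNA per cell cannot be told apart.

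Histone cluster genes were found on both sides of the comparison of KO/Y with −Tx ES cells, with the H2b genes mostly higher and the H4 genes mostly lower. Signals are log2 values relative to the array's 75th percentile, each gene is represented by its brightest probe, and p-values are from limma with Benjamini-Hochberg adjustment over all 22334 genes tested. Of the 46 cluster genes that passed the filter, 14 were higher and 9 were lower in KO/Y than in −Tx ES cells at an adjusted p under 0.05, against 20.6% and 26.4% of all genes. Over 2-fold as well, 8 were higher and 1 was lower, against 4.72% and 2.83% of all genes. The median log2 fold change was -0.13 for the cluster genes and -0.06 for all genes, and it became 0.02 without KO/Y array 1. In +Tx over −Tx ES cells, 11 genes passed the test upward and 9 downward, against 11.9% and 14.7% of all genes, with medians of -0.27 and -0.06. Over 2-fold as well, 2 genes were called higher and 1 lower, against 1.74% and 0.757%. By class, in KO/Y over −Tx 7 of 11 H2b genes were higher and 1 lower (median 0.82), 5 of 9 H4 genes were lower and 2 higher (median -0.44), and the H1, H2a and H3 genes had medians of -0.32, -0.12 and -0.27 with 1, 3 and 1 higher and 1 lower each. Fitted probe by probe, 7 of 7 downstream H2b probes were higher, while of 4 H2b body probes 0 were higher and 1 lower (median -0.12). Among 11 H4 body probes 1 was higher and 5 were lower, and of 2 downstream H4 probes 1 was higher and 0 lower. These counts stand against 19.7% of all probes higher and 25.6% lower. The class counts therefore do not separate class from probe position. The study describes its arrays as biological triplicates, and all p-values measure the spread between these 3 arrays per group.

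**Figure D1:**
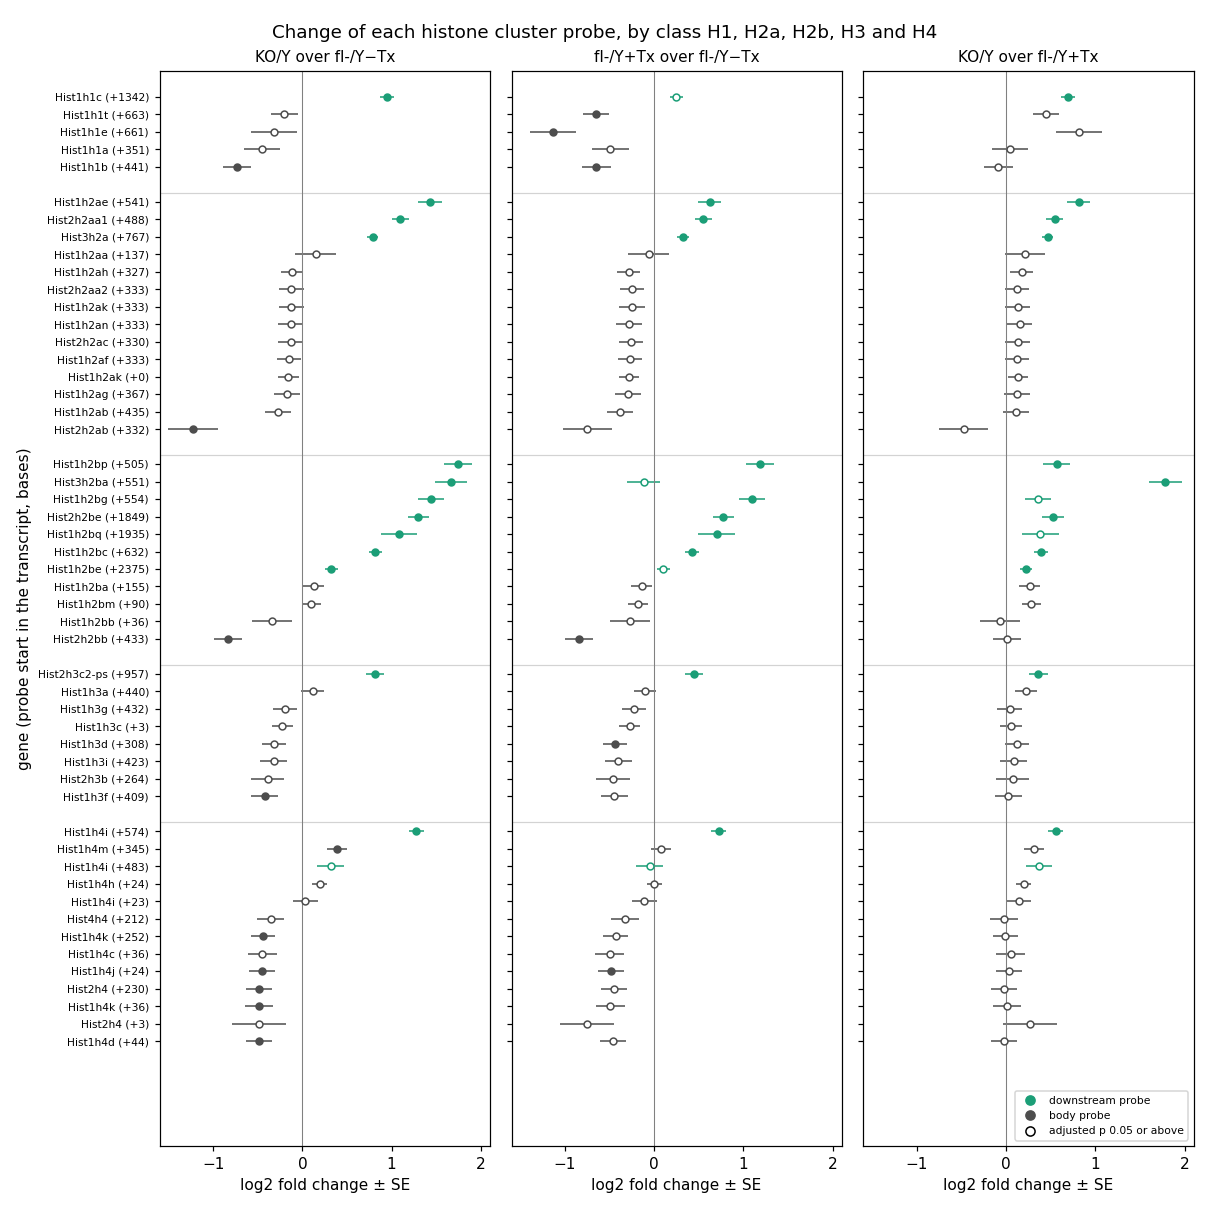
Log2 fold change (horizontal axis, ± SE) of each of the 51 histone cluster probes that passed the filter, by gene and start of the probe in the transcript (vertical axis), for KO/Y over −Tx, +Tx over −Tx and KO/Y over +Tx. Green points are downstream probes and grey points body probes, and open points had an adjusted p of 0.05 or above over all probes. Downstream probes lie to the right of 0 in KO/Y over −Tx, from 0.32 to 1.75, while most body probes lie left of it.

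Most rises lay at downstream probes. The falls that passed the test lay at body probes, at about the rate seen over all probes. Fitted probe by probe, 13 of 14 downstream probes were higher in KO/Y than in −Tx ES cells at an adjusted p under 0.05 and 0 were lower (0 also at an unadjusted p under 0.05), against 19.7% of all probes higher and 25.6% lower. Over 2-fold as well, 8 downstream probes were called higher, against 4.59% of all probes. Of 37 body probes 1 was higher and 9 were lower, against the same 19.7% and 25.6%, so falls were about as frequent as over all probes. Among body probes 1 was called lower, against 3.25% of all probes. The median log2 fold changes were 1.09 for downstream probes, -0.28 for body probes and -0.07 for all probes. In +Tx over −Tx, 10 downstream probes were higher and 0 lower, and 0 body probes were higher and 6 lower, against 10.9% and 12.7% of all probes, with medians of 0.50, -0.33 and -0.06. Over 2-fold, 2 downstream probes were called higher and 1 body probe lower, against 1.71% and 0.85% of all probes. Since the division was made with these values in view, the counts describe the members and are not a test of it. Of the 51 probes, 50 were well above background on all 9 arrays. The exception was *Hist1h2bq*, above background on 3 KO/Y, 3 +Tx and 2 −Tx arrays.

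**Figure D2:**
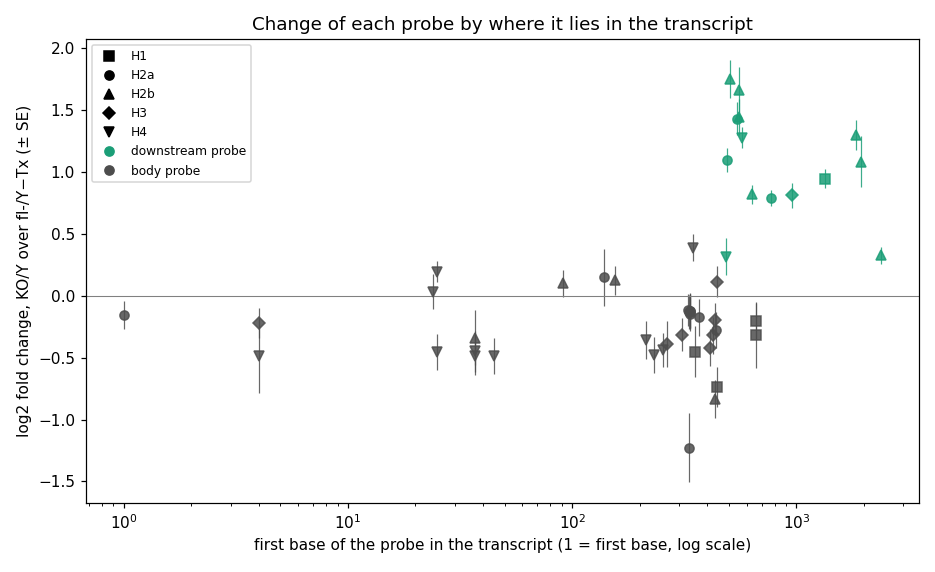
Log2 fold change in KO/Y over −Tx ES cells (vertical axis, ± SE) of each of the 51 probes against the first base of the probe in its transcript (horizontal axis, log scale). Marker shapes are the 5 histone classes and green points are downstream probes. Downstream probes have a median of 1.09 and body probes a median of -0.28.

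The largest rises in KO/Y over −Tx lay at the downstream H2b probes of *Hist1h2bp*, *Hist3h2ba* and *Hist1h2bg*. The other downstream H2b probes rose less than *Hist1h2ae* of H2a. H2B pairs with H2A in the nucleosome, and 7 of the 12 H2b probes lie downstream. *Hist1h2bp* had -1.49, -1.70 and -1.55 in KO/Y, -2.28, -2.07 and -2.10 in +Tx and -3.03, -3.27 and -3.69 in −Tx ES cells. The 3 groups did not overlap, and the signal was 3.36-fold higher in KO/Y (adjusted p = 3.93e-05) and 2.27-fold higher in +Tx (adjusted p = 0.00106) than in −Tx ES cells. *Hist1h2bg* had -1.88, -1.73 and -1.72 in KO/Y, -2.23, -2.24 and -1.92 in +Tx and -3.50, -2.95 and -3.21 in −Tx ES cells. It was 2.72-fold higher in KO/Y (adjusted p = 7.91e-05) and 2.13-fold higher in +Tx (adjusted p = 0.00116) than in −Tx ES cells and its log2 fold change in KO/Y over +Tx was 0.35 (adjusted p = 0.109). *Hist2h2be* had -2.46, -2.20 and -2.43 in KO/Y, -2.75, -2.96 and -2.94 in +Tx and -3.51, -3.88 and -3.58 in −Tx ES cells, 2.46-fold higher in KO/Y (adjusted p = 4.49e-05) and 1.71-fold higher in +Tx (adjusted p = 0.00229). *Hist1h2bq* was 2.12-fold higher in KO/Y (adjusted p = 0.00249). Its +Tx and −Tx arrays overlapped.

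*Hist1h2bc*, 1 of the members with a known polyadenylated form, had 5.36, 5.35 and 5.37 in KO/Y, 4.84, 4.97 and 5.08 in +Tx and 4.46, 4.57 and 4.60 in −Tx ES cells. The groups were in this order without overlap, with a 1.76-fold difference between KO/Y and −Tx (adjusted p = 4.57e-05). *Hist1h2be* had the smallest change of the downstream H2b probes, 0.32 on the log2 scale in KO/Y over −Tx (adjusted p = 0.00406). It had 0.10 in +Tx over −Tx (adjusted p = 0.294) and 0.22 in KO/Y over +Tx (adjusted p = 0.0417). That last difference did not pass with slide as a block (adjusted p = 0.0929). Nor did it pass without any 1 KO/Y or +Tx array or −Tx array 1 (adjusted p = 0.0586 to 0.12). *Hist3h2ba* had -0.75, 0.07 and -0.25 in KO/Y, -2.10, -2.19 and -1.99 in +Tx and -1.91, -1.93 and -2.08 in −Tx ES cells. The +Tx and −Tx arrays overlapped (log2 fold change -0.12, adjusted p = 0.657), whereas KO/Y was 3.45-fold above +Tx (adjusted p = 0.000242) and 3.17-fold above −Tx ES cells (adjusted p = 0.000123). It was the 1 cluster gene called in KO/Y over +Tx, where 2.37% of all genes were called higher and 1.03% lower.

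Downstream probes of the other classes moved the same way. For H2A, which forms the dimer with H2B, *Hist1h2ae* had -1.01, -0.76 and -0.71 in KO/Y, -1.63, -1.71 and -1.56 in +Tx and -2.48, -2.29 and -1.99 in −Tx ES cells. It was 2.69-fold higher in KO/Y (adjusted p = 4.5e-05) and 1.54-fold higher in +Tx (adjusted p = 0.0096, and 0.0895 with slide as a block) than in −Tx ES cells. *Hist2h2aa1* had 3.66, 3.98 and 3.88 in KO/Y, 3.19, 3.29 and 3.40 in +Tx and 2.71, 2.81 and 2.71 in −Tx ES cells, a 2.14-fold rise in KO/Y (adjusted p = 3.52e-05). *Hist3h2a* rose 1.73-fold (adjusted p = 2.2e-05). The linker histone gene *Hist1h1c* had 2.62, 2.59 and 2.62 in KO/Y, 1.93, 1.93 and 1.88 in +Tx and 1.51, 1.79 and 1.69 in −Tx ES cells. It was 1.93-fold higher in KO/Y than in −Tx ES cells (adjusted p = 2.39e-05), and the log2 fold change was 0.25 in +Tx over −Tx (adjusted p = 0.0422, and 0.0505 when adjusted over all probes) and 0.70 in KO/Y over +Tx (adjusted p = 0.000338). The difference in +Tx over −Tx did not pass without KO/Y array 2 or 3, any +Tx array, or −Tx array 1 or 3 (adjusted p = 0.0585 to 0.114). *Hist2h3c2-ps* is named as an H3 pseudogene on the array and matched the RefSeq gene *H3c15* by synonym. It rose 1.75-fold in KO/Y (adjusted p = 0.000248) and 1.37-fold in +Tx (adjusted p = 0.0126). The rise in +Tx was 0.27 on the log2 scale with slide as a block (adjusted p = 0.199), against 0.45 without it.

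**Figure D3:**
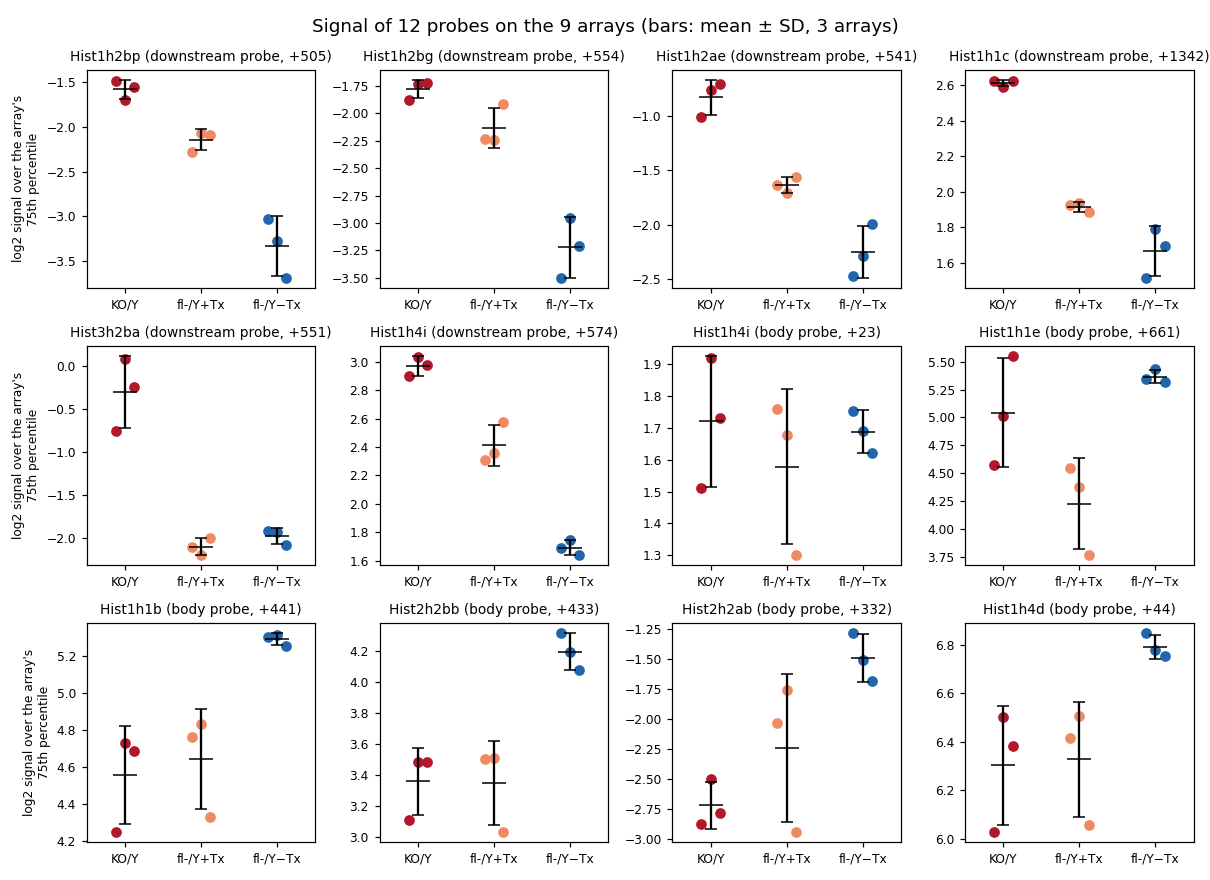
Signal of 12 probes on each array (vertical axis, log2 relative to the array's 75th percentile) in KO/Y, +Tx and −Tx ES cells (horizontal axis). Points are arrays and bars are the mean ± SD of 3 arrays, and the vertical scale differs between panels. The first 6 panels are downstream probes, highest in KO/Y, and the last 6 are body probes, of which Hist1h1b, Hist2h2bb, Hist2h2ab and Hist1h4d are below −Tx on every KO/Y array.

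Among body probes, *Hist1h1e* of the linker histones had the lowest log2 fold change on day 4. It had 4.57, 5.01 and 5.55 in KO/Y, 4.54, 4.38 and 3.77 in +Tx and 5.35, 5.43 and 5.32 in −Tx ES cells. It was 2.2-fold lower in +Tx than in −Tx ES cells (adjusted p = 0.0136), while KO/Y overlapped −Tx (log2 fold change -0.32, adjusted p = 0.352) and was 1.76-fold above +Tx (adjusted p = 0.0486, and 0.0521 when adjusted over all probes). That last difference did not pass without KO/Y array 2 or 3, +Tx array 2 or 3 or any −Tx array (adjusted p = 0.0709 to 0.133). *Hist1h1b* had 4.25, 4.73 and 4.69 in KO/Y, 4.76, 4.83 and 4.33 in +Tx and 5.31, 5.31 and 5.25 in −Tx ES cells. It fell in both groups without overlap, by 0.74 on the log2 scale in KO/Y (adjusted p = 0.00502) and by 0.65 in +Tx (adjusted p = 0.0183). *Hist1h1t*, which encodes the testis H1 variant, fell by 0.65 in +Tx (adjusted p = 0.0133), and in KO/Y its log2 fold change was -0.20 (adjusted p = 0.301). Without −Tx array 1 or 2, the fall of *Hist1h1b* in +Tx did not pass (adjusted p = 0.0543 and 0.058).

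Among the core histones, *Hist2h2bb* had 3.11, 3.49 and 3.49 in KO/Y, 3.50, 3.51 and 3.04 in +Tx and 4.31, 4.19 and 4.08 in −Tx ES cells. It was 1.78-fold lower in KO/Y (adjusted p = 0.00219) and 1.8-fold lower in +Tx (adjusted p = 0.00538), and it is the H2b probe shown above that ends at the stem-loop. *Hist2h2ab* had -2.87, -2.50 and -2.79 in KO/Y, -2.03, -1.76 and -2.94 in +Tx and -1.28, -1.51 and -1.68 in −Tx ES cells. Its 2.34-fold fall in KO/Y (adjusted p = 0.00603) was the 1 fall called in that comparison. Its +Tx arrays spread widely, with a log2 fold change of -0.75 over −Tx (adjusted p = 0.0769). Of the H4 genes, *Hist1h4d*, *Hist1h4j*, *Hist1h4k* and *Hist2h4* had log2 fold changes of -0.49, -0.45, -0.44 and -0.48 in KO/Y (adjusted p = 0.0229, 0.0281, 0.0272 and 0.0237) and of -0.46, -0.49, -0.43 and -0.45 in +Tx over −Tx ES cells (adjusted p = 0.0463, 0.0356, 0.0478 and 0.0495). The *Hist1h4d* and *Hist1h4j* probes are alike in sequence, so these are not independent readings. Without any 1 −Tx array, or without +Tx array 1 or 3 or KO/Y array 3, none of these falls in +Tx passed (adjusted p = 0.0539 to 0.136), and without KO/Y array 1 or −Tx array 1 or 2 none of those in KO/Y passed (adjusted p = 0.054 to 0.0911). Of the H3 genes, *Hist1h3f* fell by 0.42 in KO/Y (adjusted p = 0.0444) and *Hist1h3d* by 0.44 in +Tx (adjusted p = 0.0407). *Hist1h3f* did not pass without any 1 array other than KO/Y array 2 or +Tx array 3, nor did *Hist1h3d* without KO/Y array 3, +Tx array 1 or 3 or any −Tx array.

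The 7 probes at the end of the H2a coding region had log2 fold changes between -0.18 and -0.12 in KO/Y over −Tx and between -0.30 and -0.25 in +Tx over −Tx, and 0 of them passed the test. *Hist1h2ah*, the brightest H2a probe, had 9.36, 9.84 and 9.71 in KO/Y, 9.53, 9.56 and 9.30 in +Tx and 9.79, 9.73 and 9.74 in −Tx ES cells. KO/Y and −Tx arrays overlapped (log2 fold change -0.12, SE 0.13, adjusted p = 0.499), and the log2 fold change in +Tx over −Tx was -0.29 (adjusted p = 0.128). The testis variants *Hist1h2aa* and *Hist1h2ba*, the genes for TH2A and TH2B, had log2 fold changes of 0.15 and 0.13 in KO/Y over −Tx (adjusted p = 0.637 and 0.416) and of -0.06 and -0.14 in +Tx over −Tx (adjusted p = 0.863 and 0.404). The 1 body probe that was higher in KO/Y was that of *Hist1h4m*, by 0.39 on the log2 scale (adjusted p = 0.0175), with 0.46, 0.82 and 0.78 in KO/Y, 0.36, 0.48 and 0.28 in +Tx and 0.40, 0.29 and 0.21 in −Tx ES cells. It was named after its value was seen, and it did not pass without KO/Y array 2 or 3 or −Tx array 2 or 3 (adjusted p = 0.0507 to 0.063).

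Several genes carry more than 1 probe. H4 forms the tetramer with H3, and *Hist1h4i* carried 3 probes, starting 23, 483 and 574 bases into its transcript. The probe at 574 had 2.90, 3.03 and 2.97 in KO/Y, 2.31, 2.36 and 2.58 in +Tx and 1.69, 1.75 and 1.64 in −Tx ES cells, 2.42-fold higher in KO/Y (adjusted p = 7.48e-06). The body probe at 23 had 1.51, 1.92 and 1.73 in KO/Y, 1.76, 1.68 and 1.30 in +Tx and 1.75, 1.69 and 1.62 in −Tx ES cells, all overlapping, with a log2 fold change of 0.03 in KO/Y over −Tx (adjusted p = 0.879 over all probes). The probe at 483 lay between them, at 0.32 (adjusted p = 0.121). The array maps the probe named for *Hist2h2aa1* (chr3:96049949-96050008) just past that named for *Hist2h2aa2*, shown above, so on mm9 they lie at 1 locus. The downstream probe of *Hist2h2aa1* had a log2 fold change of 1.10 in KO/Y over −Tx, and the coding probe of *Hist2h2aa2* had -0.12 (adjusted p = 0.503). The *Hist2h2aa2* probe is like those of *Hist1h2af*, *Hist1h2ah* and *Hist1h2ak*, so its signal can include RNA of those genes. The differences between these probes were not tested.

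**Figure D4:**
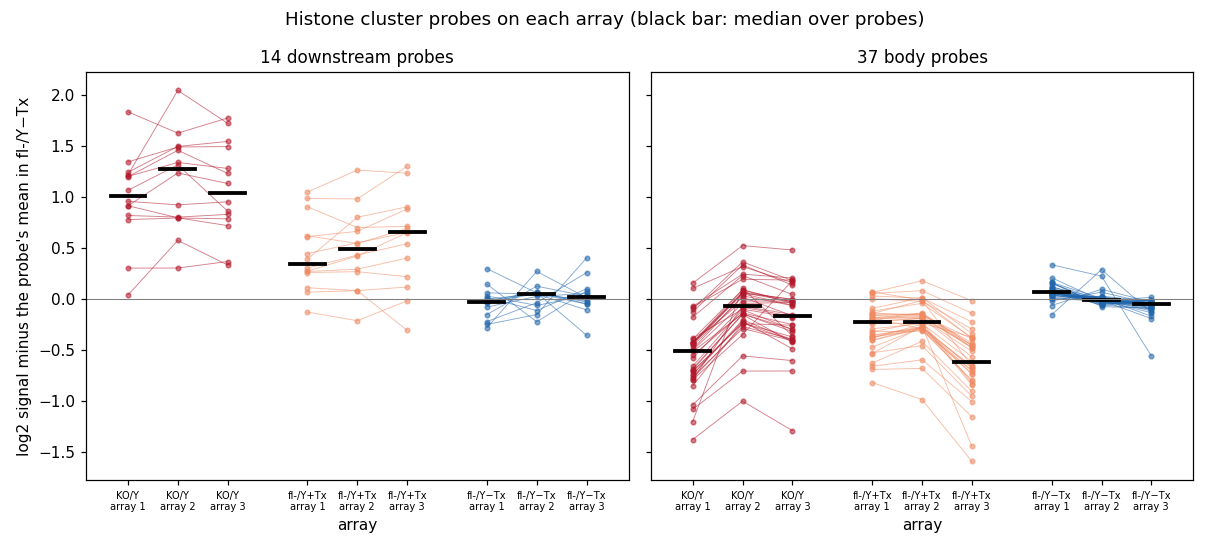
Log2 signal of each probe minus its own mean over the −Tx arrays (vertical axis) on each of the 9 arrays (horizontal axis), for 14 downstream probes and 37 body probes. Thin lines join the arrays of 1 probe within a group, and black bars are medians over probes. Among body probes KO/Y array 1 and +Tx array 3 lie lowest in their groups, at medians of -0.52 and -0.62. Among downstream probes +Tx array 3 lies highest in its group, at 0.65, while KO/Y array 1 is lowest in its group, at 1.01 against 1.28 and 1.04.

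On KO/Y array 1 all 37 body probes were below their group mean, as were all 37 on +Tx array 3. The median body shift from −Tx was -0.52, -0.07 and -0.17 on the 3 KO/Y arrays and -0.23, -0.23 and -0.62 on the 3 +Tx arrays. For downstream probes the medians were 1.01, 1.28 and 1.04 in KO/Y and 0.35, 0.49 and 0.65 in +Tx ES cells, with every KO/Y and +Tx array above the −Tx arrays, which lay between -0.03 and 0.05. These 2 arrays also had the highest 75th percentiles of signal, 484 and 469, against 344 to 389 on the other 7. Without both arrays, a choice made after seeing the data, the median log2 fold change in KO/Y over −Tx was 1.14 for downstream and -0.11 for body probes, with 14 of 14 downstream probes higher and 5 body probes higher and 9 lower. In +Tx over −Tx it was 0.43 and -0.24, with 9 downstream probes higher and 13 body probes lower. The part of the 2 arrays in the body falls of single genes was not tested beyond these values.

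With slide as a block, which only the +Tx arrays can estimate, the medians in KO/Y over −Tx were 0.95 for downstream and -0.12 for body probes, and in +Tx over −Tx 0.35 and -0.23. In that fit 0 body probes passed in either direction in KO/Y over −Tx and in +Tx over −Tx. For this and the other alternative fits the share of all probes or genes that passed is not given. Their counts alone therefore do not set the members apart from other genes. On the slide that holds all 3 −Tx arrays and +Tx array 1, the medians in +Tx over −Tx were again 0.35 and -0.23, with 1 downstream probe higher and 2 body probes lower. On the slide with the 3 KO/Y arrays and 2 +Tx arrays, the medians in KO/Y over +Tx were 0.47 and 0.16. On that slide 7 of 14 downstream probes were higher in KO/Y. With the block, *Hist1h1b*, *Hist2h2bb*, *Hist2h2ab* and *Hist1h2bq* no longer passed in KO/Y over −Tx (log2 fold changes -0.56, -0.61, -0.91 and 0.62, adjusted p = 0.225, 0.165, 0.25 and 0.236), nor did the 4 H4 genes, *Hist1h3f*, *Hist1h4m* and the downstream probe of *Hist1h2be* (adjusted p = 0.111). The other downstream rises named above in KO/Y over −Tx still passed, with log2 fold changes from 0.55 for *Hist2h3c2-ps* (adjusted p = 0.0415) to 1.65 for *Hist3h2ba* (adjusted p = 0.0148), among them 1.55 for *Hist1h2bp* (adjusted p = 0.00879), 1.11 for *Hist1h4i* (adjusted p = 0.00223) and 0.96 for *Hist1h1c* (adjusted p = 0.0045). In +Tx over −Tx, *Hist1h2bg*, *Hist1h2bp*, *Hist2h2be* and *Hist1h4i* still passed (adjusted p = 0.0277, 0.0263, 0.0153 and 0.0166), while the other cluster genes named above as higher or lower in that comparison did not. Of the downstream probes, *Hist1h2ae*, *Hist2h2aa1*, *Hist3h2a*, *Hist1h2bc*, *Hist2h3c2-ps*, *Hist1h1c* and *Hist1h2bq* were lost (adjusted p = 0.0895, 0.0772, 0.107, 0.0864, 0.199, 0.199 and 0.393). Of the body probes, *Hist1h1e*, *Hist1h1b*, *Hist1h1t*, *Hist2h2bb*, *Hist1h3d* and the 4 H4 genes were lost (adjusted p = 0.0899 to 0.311).

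Between KO/Y and +Tx ES cells, 12 cluster genes were higher and 0 were lower (0 also at an unadjusted p under 0.05, by limma), against 12.1% and 14.2% of all genes, with a median of 0.14 against 0.01. Probe by probe, 11 of 14 downstream probes were higher and 0 of 37 body probes passed in either direction, against 11% of all probes higher and 13.7% lower. Over 2-fold, 1 downstream probe was called higher, against 2.23% of all probes, while 1.3% of all probes were called lower. The medians were 0.50 and 0.12. By class, 2 of 5 H1, 3 of 13 H2a, 5 of 11 H2b, 1 of 8 H3 and 1 of 9 H4 genes were higher. The comparisons with −Tx ES cells share their 3 control arrays.

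The 3 genes that did not pass the filter were *Hist1h1d*, *Hist1h2ac* and *Hist3h2bb-ps*, with their probes above background on 1, 3 and 0 of the 9 arrays. The downstream probe of *Hist4h4* was above background on 0 arrays as well, while the body probe of that gene had a log2 fold change of -0.36 in KO/Y (adjusted p = 0.0904). Another 3 probes that the array describes as histone cluster transcripts carry other names and are not members.

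Genes that make histone mRNA or handle histones were mostly lower in KO/Y ES cells. Of 27 listed genes for histone transcription and mRNA processing, 25 passed the filter. In KO/Y over −Tx 1 was higher and 17 lower, against 20.6% and 26.4% of all genes, with a median log2 fold change of -0.41. *Lsm11*, a subunit of the U7 particle that cleaves behind the stem-loop, had a log2 fold change of -0.91 in KO/Y (adjusted p = 1.45e-05) and -0.58 in +Tx over −Tx (adjusted p = 0.00056). *Zfp473*, a partner of that particle, had -0.86 (adjusted p = 0.000132) and -0.34 (adjusted p = 0.0287), and *Slbp* had -0.49 (adjusted p = 0.00111) and -0.14 (adjusted p = 0.226). *Ccne1*, the cyclin that activates *Cdk2* at S-phase entry, had -1.06 in KO/Y (adjusted p = 4.78e-06) and -0.04 in +Tx (adjusted p = 0.67), and *Pou2f1*, the Oct1 factor that binds the octamer of H2b promoters, had -0.76 in KO/Y (adjusted p = 0.000106). *Npat*, the coactivator of histone transcription, was well above background on 0 arrays.

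All 27 histone chaperones passed the filter, and 17 were lower and 0 higher in KO/Y than in −Tx ES cells (1 higher at an unadjusted p under 0.05, by limma), and 9 were lower and 0 higher in +Tx than in −Tx ES cells (0 higher also at an unadjusted p under 0.05). *Hira*, which deposits the variant H3.3, had a log2 fold change of -0.95 (adjusted p = 2.61e-05), *Tonsl*, which reads newly replicated chromatin, -0.73 (adjusted p = 2.18e-05), *Ubn2*, a partner of *Hira*, -0.68 (adjusted p = 5.12e-05) and *Nap1l1*, a carrier of H2A and H2B, -0.67 (adjusted p = 0.000183). Of 27 S-phase genes 18 were lower and 1 higher, among them *Pcna*, the replication clamp, at -0.79 (adjusted p = 7.97e-05), *Mcm10* at -0.75 (adjusted p = 4.05e-05) and the ribonucleotide reductase subunits *Rrm1* at -0.65 (adjusted p = 4.5e-05) and *Rrm2* at -0.56 (adjusted p = 0.000128). In +Tx over −Tx the S-phase genes had 7 lower and 1 higher. These counts stand beside 20.6% of all genes higher and 26.4% lower in KO/Y, and 11.9% higher and 14.7% lower in +Tx. With slide as a block, 8 genes for histone transcription and mRNA processing, 12 chaperones and 12 S-phase genes were lower in KO/Y, and 1, 2 and 1 were lower in +Tx. Of the falls named here in KO/Y, that of *Slbp* was lost with the block (log2 fold change -0.34, adjusted p = 0.129), and that of *Zfp473* in +Tx (adjusted p = 0.223), which also did not pass without +Tx array 1 or 2 or −Tx array 2 or 3 (adjusted p = 0.055 to 0.0968). Leaving out each array in turn, 2 to 8, 4 to 10 and 4 to 11 genes of these lists were lower in +Tx. With the mean of a gene's probes *Nap1l1* had -0.16 in KO/Y (adjusted p = 0.0896).

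The replication-independent variants, whose mRNAs are polyadenylated and which lie outside the clusters, are the other part of the histone supply. Of 12 that passed the filter, 2 were higher and 4 lower in KO/Y, and 1 was higher and 5 lower in +Tx than in −Tx ES cells, against 20.6% and 26.4% of all genes in KO/Y and 11.9% and 14.7% in +Tx. *H2afy*, the gene for macroH2A, had log2 fold changes of -0.73 in KO/Y (adjusted p = 0.000151) and -0.78 in +Tx (adjusted p = 0.000386). *Cenpa*, the centromeric H3, had -0.72 (adjusted p = 1.97e-05) and -0.61 (adjusted p = 0.000173), *H2afz*, the gene for H2A.Z, -0.47 (adjusted p = 0.000272) and -0.37 (adjusted p = 0.00288), and *H3f3b*, 1 of the H3.3 genes, -0.46 (adjusted p = 0.000228) and -0.50 (adjusted p = 0.000477). *H3f3a*, the other H3.3 gene, had -0.18 (adjusted p = 0.0505) and -0.21 (adjusted p = 0.0432). *H2afx*, the gene for the variant phosphorylated at DNA breaks, which can end at a stem-loop or with a tail, was higher by 0.26 in KO/Y (adjusted p = 0.0151) and by 0.32 in +Tx (adjusted p = 0.0127), and passed in neither comparison with slide as a block or without −Tx array 3, nor in KO/Y without KO/Y array 3 (adjusted p = 0.0515 to 0.213). The fall of *H3f3b* in KO/Y did not pass with the mean of its probes (-0.14, adjusted p = 0.122), nor did that of *H3f3a* in +Tx with slide as a block (adjusted p = 0.168) or without any 1 array other than KO/Y array 1 (adjusted p = 0.0503 to 0.127). *H1f0* was above background on 2 KO/Y arrays and 0 of the others.

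RefSeq promoters (GRCm38.p6) were matched to 43 of the 49 genes, and in the first listed promoter of each gene the 250 bases before the start were searched on both strands for the CCAAT motif, the TATAAA motif and the octamer ATTTGCAT, none of which contains another. CCAAT was in 36 of 43 member promoters against 34.5% of 27025 promoters, 1 for every gene listed, TATAAA in 22 against 13%, and the octamer in 12 against 1.61%, these 12 being 7 of 14 H2a and 5 of 9 H2b promoters. The 150 bases before the start are shown for an H2b gene whose body probe fell, *Hist2h2bb* (chr3:96269550-96269699, plus strand), and for 1 whose downstream probe rose, *Hist1h2bg* (chr13:23571250-23571399, plus strand), with motif letters in capitals.
Hist2h2bb: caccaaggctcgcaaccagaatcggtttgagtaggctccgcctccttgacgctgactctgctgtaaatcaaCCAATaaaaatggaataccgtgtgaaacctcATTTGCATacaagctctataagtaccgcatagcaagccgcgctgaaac
Hist1h2bg: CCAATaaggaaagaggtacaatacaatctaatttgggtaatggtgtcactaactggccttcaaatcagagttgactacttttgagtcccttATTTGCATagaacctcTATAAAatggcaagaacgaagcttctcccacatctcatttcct
Both hold CCAAT and the octamer, and a match describes the letters only.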

How the data were processed

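RNA of the 3 groups of ES cells was measured on 9 one-colour Agilent mouse arrays, 3 per group and 1 GEO sample per group, after labelling with an oligo(dT)-primed kit. The authors scanned the arrays and deposited intensity values from Agilent Feature Extraction 10.7.3.1, per the file headers background-subtracted and detrended within each array. The authors also deposited 1 signal value per probe and group, which was used only to check the scanner values. Here log2 of the processed intensity minus the array's 75th percentile was taken after removal of outlier spots. No spot of a member was saturated. A probe stayed in where all arrays of 1 group or more read it well above background, and the brightest such probe stood for its gene. limma 3.58.1 in R 4.3.3 was fitted to all 9 arrays, with Benjamini-Hochberg adjustment over all genes or, probe by probe, over all probes. "Called" means an adjusted p under 0.05 and over 2-fold. The fit was tested on simulated data. A number of arrays this small limits the precision. The genes named are those called in any comparison, the 3 largest changes per class and comparison without overlap of groups, the brightest of each class, testis variants, and genes whose probes disagree. Up to 4 genes are named per other list, besides a few fixed ones. The members and lists were chosen with earlier results of these data known. The division of probes by position and the omission of both low arrays were chosen after seeing the data. Arrays are numbered by slide position. Alternatives covered background correction, normalization, filter, slide, variance model, probe choice, outlier spots, arrays in the fit and each array left out.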

Additional observations from a re-analysis of the deposited data

How the results depend on the processing

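No paired analysis was possible because the labels tie no array to a replicate number. The counts below are given without the share over all genes or probes in the same fit. No named gene changed direction under the alternatives while passing the test, the genes of the other lists having been added to them after seeing the data, and the cause of the changes below was not tested. With normexp background correction, in +Tx over −Tx 14 genes were lower, 0 were called higher, 13 body probes were lower and the downstream median was 0.32. In KO/Y over −Tx 3 genes were called higher and 0 lower, with a downstream median of 0.79, and in KO/Y over +Tx that median was 0.37 with 4 body probes higher. With quantile normalization 5 genes were lower in +Tx over −Tx and 1 body probe was higher in KO/Y over +Tx. Without a filter on dim probes, which adds features to the adjustment, 4 genes and 1 body probe were lower in +Tx over −Tx, and in KO/Y over −Tx 3 genes and 3 body probes were lower and 0 body probes higher. With probes above background on all 9 arrays only, 12 body probes were lower in +Tx over −Tx and 2 higher in KO/Y over +Tx. With slide as a block, in +Tx over −Tx 4 genes were higher and 0 lower, 1 was called higher and 0 lower, and 4 downstream probes were higher (median 0.35) and 0 body probes lower. In KO/Y over −Tx 0 genes were lower or called lower, the downstream median was 0.95 and 0 body probes passed in either direction, and in KO/Y over +Tx 1 body probe was higher. On 1 slide alone, in +Tx over −Tx 0 genes were higher and 3 lower, 0 were called in either direction, and 1 downstream probe was higher (median 0.35) and 2 body probes lower. In KO/Y over +Tx 7 genes and 7 downstream probes were higher. With an intensity trend in the variance, 16 genes and 18 body probes were lower in +Tx over −Tx, 14 body probes lower in KO/Y over −Tx and 4 higher in KO/Y over +Tx. With only the 6 arrays compared, 15 body probes were lower in +Tx over −Tx. Tested against a fold of 2, 0 genes were called in +Tx over −Tx, 1 higher and 0 lower in KO/Y over −Tx, and 0 higher in KO/Y over +Tx. Without both low arrays, in +Tx over −Tx 1 gene was called higher and 0 lower and 13 body probes were lower. In KO/Y over −Tx 5 body probes were higher, and in KO/Y over +Tx 1 gene and 1 body probe were lower and 5 body probes higher.

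Leaving out each array in turn, in +Tx over −Tx 9 to 11 genes were higher and 3 to 13 lower, 1 to 2 were called higher and 0 to 1 lower, the gene median ran from -0.32 to -0.17, 8 to 11 downstream probes were higher (median 0.43 to 0.57), and 1 to 16 body probes were lower (median -0.40 to -0.24). In KO/Y over −Tx 13 to 15 genes were higher and 3 to 11 lower, 7 to 9 were called higher and 1 lower, the gene median ran from -0.23 to 0.02, 13 to 14 downstream probes were higher (median 1.02 to 1.16), and 0 to 1 body probes were higher and 3 to 12 lower (median -0.33 to -0.11). In KO/Y over +Tx 9 to 14 genes were higher and 0 to 1 lower, 1 to 2 were called higher, the gene median ran from 0.04 to 0.28, 7 to 10 downstream probes were higher (median 0.44 to 0.51), and 0 to 5 body probes were higher and 0 to 1 lower (median 0.0026 to 0.24). The count of genes lower in KO/Y over −Tx was 3 without KO/Y array 1, −Tx array 1 or −Tx array 2 and 5 without −Tx array 3, and in +Tx over −Tx it was 3 or 4 without KO/Y array 3, +Tx array 1 or 3 or any −Tx array. Signal near background limits Hist1h2bq and the 4 probes that did not pass the filter. Some rises also start from low −Tx signals, -3.51, -3.88 and -3.58 for Hist2h2be and -3.03, -3.27 and -3.69 for Hist1h2bp. On the same −Tx arrays the lowest signal well above background was -3.98, -4.26 and -4.19, so the size of these rises is also limited.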
